A study of Mus musculus with 6 samples.

Results

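The genes that give endothelial cells their identity, and those that mark arteries, veins and capillaries, were read out in ribosome-associated RNA from mouse skeletal muscle after vehicle or E2 (17β-estradiol). A list of 50 genes was matched by symbol to the deposited count table of 24062 genes. All 50 were in the table, and 49 had at least 1 count. Summed over the list, E2 libraries had a mean of 1075 ± 510.3 CPM (each count as its share of all counts in that library, times 1000000; SD, n = 3) and vehicle libraries 2109 ± 959 CPM (SD, n = 3), a ratio of 0.51, and the groups overlapped. The arterial gene Sema3g had the largest fold difference of the members with at least 20 counts, with 83 counts over the vehicle libraries and 1 over the E2 libraries. Cdh5, which encodes the junction protein VE-cadherin, had nearly the same mean in both groups.

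In TRAPseq, a tagged ribosome is captured with an antibody and the RNA that comes with it is sequenced. The mice were female GFP-L10aEC mice, a cross of the Rosa26 fsTRAP line, in which a floxed stop precedes GFP-tagged Rpl10a, with VECad-Cre. The labels place the allele Gt(ROSA)26Sorfm1 on a B6.129S4 background, name the construct CAG-EGFP/Rpl10a with birA, and end in the line code Wtp/J. In that cross the promoter of Cdh5, itself 1 of the 50 genes, drives Cre, so any cell in which this promoter is or was active can carry the tag. Both groups were ovariectomized, according to the methods of the study. They received placebo pellets (vehicle) or 17β-estradiol pellets (E2) for 4 weeks. The labels describe the mice as 4 weeks old at treatment. Another age is given in the methods. Gastrocnemius and soleus were taken, and anti-GFP immunoprecipitation gave 3 libraries per group. The labels tie each library to 2 mouse numbers, which were the same in both groups, and none of the sources used here says whether those mice were pooled. The methods count as many biological replicates per group as there are mouse numbers, so n and SD refer here to libraries and not to mice. Fewer endothelial cells, less tagged ribosome per cell and less RNA of a gene per cell cannot be told apart in such bulk libraries.

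Endothelial cells line all blood vessels. Their identity is kept by ETS, SOX and GATA transcription factors, which switch on genes for junction proteins and for the receptors of VEGF, angiopoietin and other vascular ligands. Arterial cells use VEGF and Notch signals and carry the ligand ephrin B2, venous cells rely on the nuclear receptor COUP-TFII and carry the ephrin receptor EphB4, and capillary cells of muscle express exchange proteins such as the water channel aquaporin 1. Estrogen acts on endothelial cells through estrogen receptor α, a transcription factor that binds response elements in DNA.

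Totals ranged from 84823 counts in vehicle replicate 3 to 451034 in vehicle replicate 2, and a single count was worth 11.8 and 2.22 CPM in these libraries. Since 0 observed counts are compatible with up to 3, a gene without a count can still lie at up to 35.4 CPM in vehicle replicate 3, 10.4 and 6.65 CPM in vehicle replicates 1 and 2, and 23.8, 15.1 and 14.9 CPM in E2 replicates 1 to 3. Of the 50 genes, 42, 45 and 26 had a count in vehicle replicates 1 to 3 and 28, 35 and 42 in E2 replicates 1 to 3. Skeletal muscle fiber markers, all 27 of which had counts, made up 7.91% to 13.6% of each library, whereas the 50 endothelial genes made up 0.0611% to 0.289%. Counts of 4 Y-linked genes amounted to 40 in vehicle replicate 1, 63 in vehicle replicate 2 and 0 elsewhere, although all mice were described as female. Vehicle replicates 1 and 2 were also the libraries with the most counts on the endothelial genes. They stood apart over the whole table: a chi-square of counts per degree of freedom, which also grows with depth, was 3.87 between them, 17.8 and 16.2 between each of them and vehicle replicate 3, and 8.3, 8.73 and 17.6 between vehicle replicate 3 and E2 replicates 1 to 3. Rn45s, the ribosomal RNA precursor, took 30.4%, 28.5% and 33.1% of vehicle libraries and 35.9%, 29.9% and 42.9% of E2 libraries. The part of these differences between libraries in the results was not tested.

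The 50 genes held 2684 counts over the 6 libraries, and 1433 of these (53.4%) fell on Epas1, Ets1, Cdh5 and Kdr. At least 20 counts were reached by 26 genes, 10 to 19 by 7 genes and 1 to 9 by 16 genes, and Hey1, an effector of Notch signaling, had none. Per kilobase of exon, which makes levels comparable between genes, Epas1 (52.6 CPM per kb, mean of 6 libraries), Cdh5 (49.6), Ets1 (23.8), Plvap (18.7), Ly6a (17.8), Aqp1 (13.6) and Kdr (12.9) were highest. In vehicle libraries the first 4 by level per kilobase were Epas1 (71.4 CPM per kb), Cdh5 (51.0), Ets1 (38.2) and Kdr (21.5). In E2 libraries they were Cdh5 (48.2 CPM per kb), Epas1 (33.8), Plvap (23.7) and Ly6a (19.6), with Ets1 at 9.37 and Kdr at 4.28. The ranges over libraries of neighbors in each order overlapped.

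Upstream sequences are shown for the members with the lowest adjusted p in the test without a filter on low counts (below 0.1) that had an entry in the RefSeq promoter table (GRCm38.p6), a choice made after their values were seen. Ets1, Fli1 and Ptprb also had an adjusted p below 0.1 in that test but no entry in the promoter table, and are named only. Each sequence is the 250 bases before the annotated start, on the strand of the gene. Capitals mark GGTCA or its reverse complement TGACC, the core that is repeated in the estrogen response element GGTCANNNTGACC.
Sema3g, chr14:31217623-31217872, plus strand: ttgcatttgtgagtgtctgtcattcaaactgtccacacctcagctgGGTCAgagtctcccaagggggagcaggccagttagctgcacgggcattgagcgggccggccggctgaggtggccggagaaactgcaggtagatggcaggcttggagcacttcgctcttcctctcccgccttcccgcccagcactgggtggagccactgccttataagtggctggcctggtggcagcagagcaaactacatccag
Kdr, chr5:75978456-75978705, minus strand: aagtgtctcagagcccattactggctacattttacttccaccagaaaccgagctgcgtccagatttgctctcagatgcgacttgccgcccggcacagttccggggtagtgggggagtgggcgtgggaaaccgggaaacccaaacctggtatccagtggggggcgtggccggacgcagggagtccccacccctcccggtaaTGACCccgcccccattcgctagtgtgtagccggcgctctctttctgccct
Efnb2, chr8:8661243-8661492, minus strand: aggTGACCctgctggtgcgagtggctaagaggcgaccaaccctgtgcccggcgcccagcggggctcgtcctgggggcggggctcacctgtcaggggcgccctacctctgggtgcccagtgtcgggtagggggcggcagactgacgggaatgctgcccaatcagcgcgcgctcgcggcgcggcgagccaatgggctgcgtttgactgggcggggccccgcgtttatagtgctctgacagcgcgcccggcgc
Eng, chr2:32646345-32646594, plus strand: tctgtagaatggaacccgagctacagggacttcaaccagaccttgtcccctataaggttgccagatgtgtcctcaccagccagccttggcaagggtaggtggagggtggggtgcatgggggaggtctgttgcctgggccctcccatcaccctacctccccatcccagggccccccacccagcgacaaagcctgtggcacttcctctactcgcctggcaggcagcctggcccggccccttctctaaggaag

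Sema3g, Kdr and Efnb2 each held GGTCA once on either strand, and Eng did not hold it. Over the 39 promoter entries that matched 32 of the 50 genes, 19 (48.7%) held it, beside 35.3% of all 32536 promoters in windows of the same length. The full element was in 0 of the 39 entries and in 0.0645% of all promoters. The ETS core GGAA, searched on both strands, was in 37 entries (94.9%) and in 93.4% of all promoters. These matches describe letters in a window and not bound sites.

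Summed over the 50 genes, vehicle replicates 1 to 3 had 2403, 2887 and 1037 CPM (694, 1302 and 88 counts) and E2 replicates 1 to 3 had 611, 992 and 1622 CPM (77, 197 and 326 counts). The 95% Poisson intervals were 2227 to 2588, 2732 to 3048 and 832 to 1278 CPM for vehicle, and 482 to 764, 858 to 1141 and 1451 to 1808 CPM for E2. Vehicle replicates 1 and 2 stood above all E2 libraries, and vehicle replicate 3 stood among them. The E2 mean was 0.51 times the vehicle mean and 1.04 times the value of vehicle replicate 3. The log2 ratio of the means was -0.97, and -0.80 with Rn45s left out of the library totals. No test was made on the sum, since the genes were listed with earlier results of these data known.

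**Figure D1:**
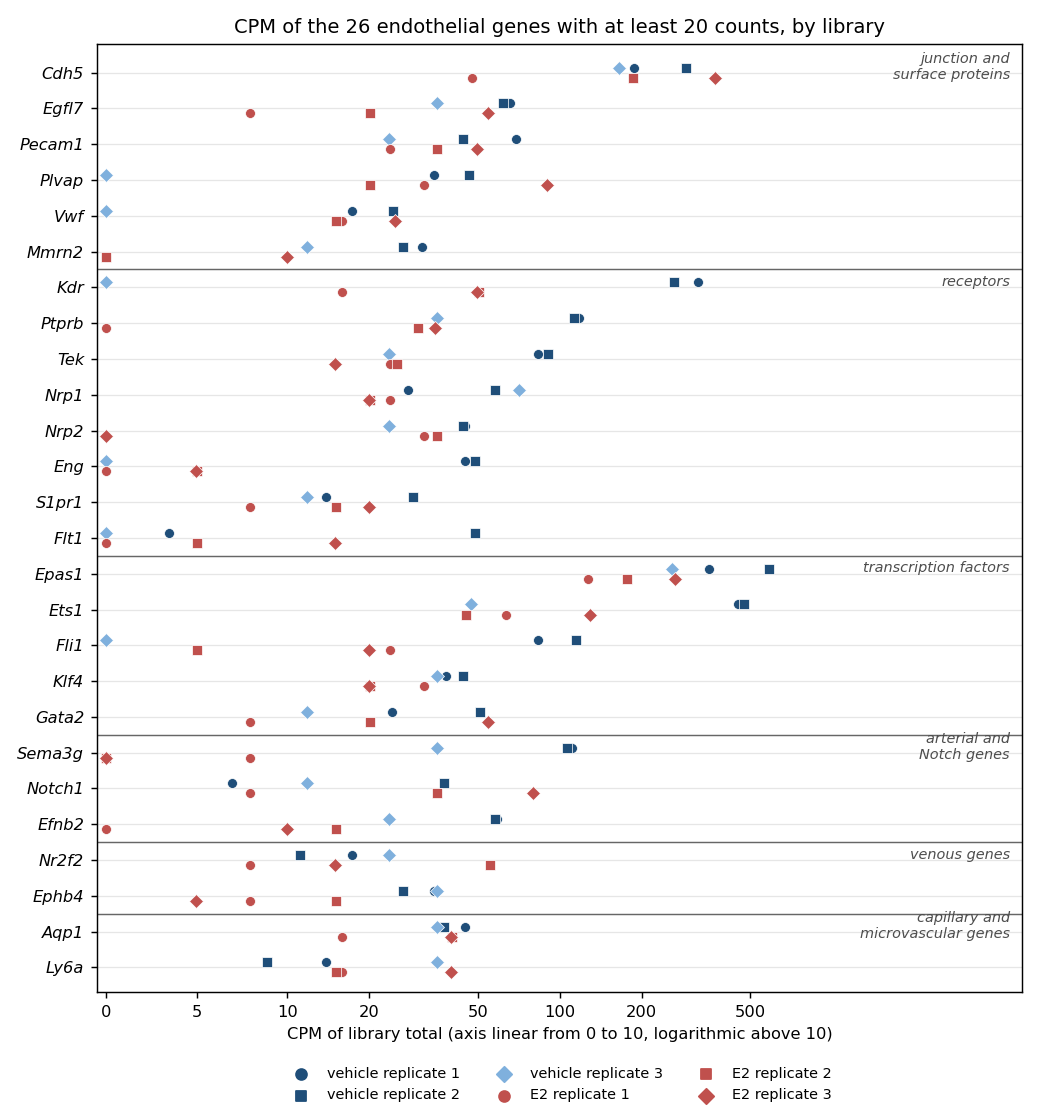
Each row is 1 of the 26 endothelial genes with at least 20 counts, and each point is the CPM of 1 library, with the axis linear from 0 to 10 and logarithmic above; blue marks vehicle (light blue vehicle replicate 3) and red marks E2. For 15 of the 26 genes (57.7%, beside 33.6% of all genes with at least 20 counts) vehicle replicates 1 and 2 lie to the right of all red points, and for 7 of them vehicle replicate 3 does too.

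Among the 26 genes with at least 20 counts, 21 (80.8%) had a lower mean CPM in E2 than in vehicle libraries, beside 59.5% of the 4657 genes of the table that reached 20 counts. For 7 genes (26.9%) the highest E2 library was below the lowest vehicle library, which was the case for 11.8% of those 4657 genes. These were Sema3g, Efnb2, Ephb4, Ptprb, Nrp1, Klf4 and Mmrn2. None of the 26 had all E2 libraries above all vehicle libraries, beside 6.48% of all such genes. With 3 libraries against 3, the exact two-sided permutation test gives these genes p = 0.1, the smallest it allows. Other lists were counted in the same way. Of 26 skeletal muscle fiber markers, 21 had a lower and 5 a higher mean in E2, with 10 fully below and 1 fully above vehicle. Of 27 vascular signaling partners (described below), 22 were lower and 5 higher, with 7 fully below and 1 fully above. Of 7 fibroblast markers, 4 were lower and 3 higher. Lower means were thus not particular to the endothelial genes.

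In edgeR's quasi-likelihood test of E2 against vehicle, 5 of the 50 genes passed the filter on low counts, which kept 1682 genes in all. With Benjamini-Hochberg adjustment over these, 0 of the 5 were called in either direction at an adjusted p below 0.05, where 2.97% of all tested genes fell and 2.5% rose. At an unadjusted p of 0.05 or less in the same test, Kdr and Ets1 were lower (15.1% of all tested genes) and 0 were higher (10.5%). DESeq2 gave an adjusted p to 4 of the 5 and called 0 of these at an adjusted p below 0.05, and it called 1 of the 5 lower at the unadjusted threshold (13% of all tested genes). The median log2 fold change of the 5 genes was -0.90, beside 0.01 over all tested genes.

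The filter left out genes such as Sema3g that were well counted in vehicle replicates 1 and 2 and nearly absent elsewhere, so the planned test without it is given beside it for the members. Of the 49 members with a count, 3 were then called lower by the quasi-likelihood test at an adjusted p below 0.05, namely Sema3g, Kdr and Ets1, where 0.939% of 14057 genes were lower. At the unadjusted threshold 11 members were lower (6.81% of all genes), the further ones being Eng, Fli1, Ptprb, Efnb2, Tek, Mmrn2, Epas1 and Ephb4, and 1, Klf2, was higher (3.27%). DESeq2 without the filter gave an adjusted p to only 4 members (Cdh5, Epas1, Ets1 and Kdr), none of them below 0.05, and called 8 members lower at the unadjusted threshold (2.57% of all genes). Without vehicle replicate 3, and with the filter, 8 of the 12 members tested were lower at an adjusted p below 0.05 (24.3% of all genes tested). That count is no support for a direction, since 5 of the 12 (Ptprb, Sema3g, Tek, Efnb2 and Fli1) reached the level asked by the filter in both remaining vehicle libraries and in 0 E2 libraries. Without the filter and without that library 10 members were lower (5.02% of all genes). Without vehicle replicates 1 and 2, 0 members were called at an adjusted p below 0.05 with or without the filter, the lone vehicle library being assumed to vary like the others.

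**Figure D2:**
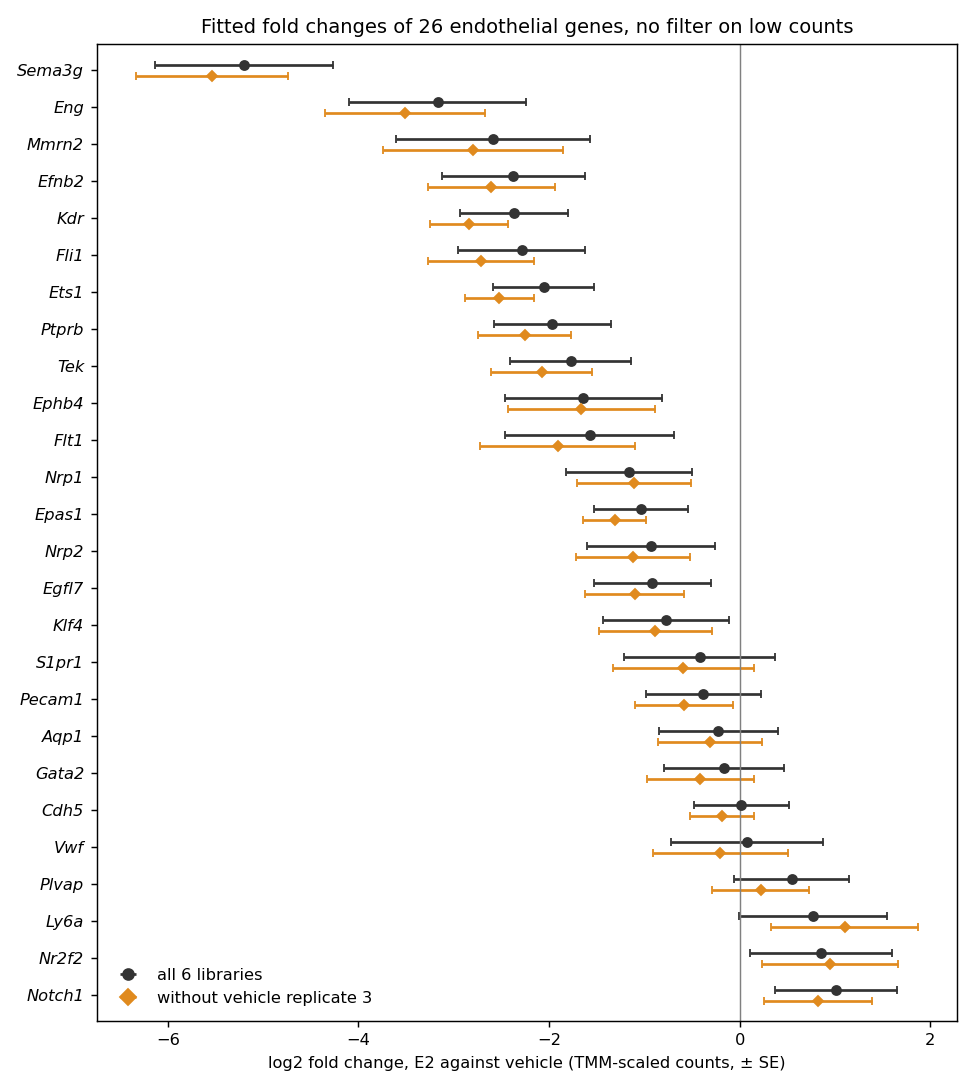
Points are fitted log2 fold changes of E2 against vehicle with their standard errors for the 26 genes, without a filter on low counts, from all 6 libraries (black) and without vehicle replicate 3 (orange). Sema3g lies farthest to the left at -5.20, Cdh5 sits at 0.02, and Notch1, Nr2f2, Ly6a and Plvap lie to the right of 0 in both.

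Among the arterial and Notch genes, Sema3g (ENSMUSG00000021904.6, mm10 chr14:31217860-31230352, plus strand), which encodes a secreted semaphorin of arterial endothelium, had 111, 106 and 35.4 CPM in vehicle replicates 1 to 3 and 7.94, 0 and 0 CPM in E2 replicates 1 to 3. In counts these were 32, 48 and 3 against 1, 0 and 0. All vehicle libraries were above all E2 libraries, although vehicle replicate 3 rested on 3 counts. Pooled over libraries, the vehicle level was 52.9 times the E2 level, with an exact 95% interval of 9.23 to 2110 that covers counting error only. Sema3g fell by 5.20 ± 0.93 (SE) on the log2 scale in the quasi-likelihood test without the filter (adjusted p = 2.33e-05), a value that depends on the prior count because E2 held 1 count. The adjusted p stayed between 1.37e-09 and 0.0166 when each of the 6 libraries was left out in turn, and with the replicate number as a block it was 0.00151. With the filter, Sema3g was tested only when a library was left out, and without E2 replicate 2 its adjusted p was 0.0765. Without both vehicle replicates 1 and 2 the log2 fold change was -3.45 and the adjusted p was 0.83. DESeq2 without the filter gave a log2 fold change of -5.30 with an unadjusted p of 0.000142 and no adjusted p.

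Efnb2, the gene for the arterial ligand ephrin B2, had 58.9, 57.6 and 23.6 CPM in vehicle and 0, 15.1 and 9.95 CPM in E2 libraries. The groups did not overlap, and the means were 46.7 ± 20.03 and 8.35 ± 7.68 CPM (SD, n = 3 each). Its log2 fold change without the filter was -2.38 ± 0.75 (SE) with an adjusted p of 0.094 in the quasi-likelihood test, and only leaving out vehicle replicate 3 brought that p below 0.05 (0.00317). Notch1, a receptor through which arterial identity is set, went the other way in its means, with 6.92, 37.7 and 11.8 CPM in vehicle and 7.94, 35.3 and 79.6 CPM in E2 libraries. Those ranges overlapped, and E2 replicate 3 alone stood above the highest vehicle library. Notch1 shares 1068 exon bases with the opposite-strand transcript 0610009E02Rik, and no source used here says whether the counting used strand.

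The other 6 arterial and Notch genes had few counts. Notch4, an endothelial Notch receptor, had 18 counts in all, Gja4, the gap junction gene connexin 37, had 14, Dll4, a Notch ligand, had 8, Gja5, the gap junction gene connexin 40, had 6, and Bmx, a tyrosine kinase of arterial endothelium, had 5. Hey1 had 0 in every library. Of the 8 counts of Dll4, 5 were in E2 replicate 3. Gja5 had 3.46, 2.22 and 0 CPM in vehicle and 7.94, 5.04 and 9.95 CPM in E2 libraries, all higher in E2, by 4 counts against 2 (adjusted p = 0.674 in the unfiltered quasi-likelihood test). The 9 genes together had 197, 244 and 118 CPM in vehicle and 47.6, 70.5 and 159 CPM in E2 libraries, and E2 replicate 3 stood above vehicle replicate 3. The E2 mean was 0.496 times the vehicle mean and 0.784 times vehicle replicate 3.

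Of the venous genes, Ephb4, the receptor for ephrin B2, had 34.6, 26.6 and 35.4 CPM in vehicle and 7.94, 15.1 and 4.97 CPM in E2 libraries. All 3 vehicle libraries were above all E2 libraries, and vehicle replicate 3 was not the low one here. The log2 fold change without the filter was -1.64 ± 0.82 (SE), with an adjusted p of 0.475 in the quasi-likelihood test. Nr2f2, which encodes COUP-TFII, had 17.3, 11.1 and 23.6 CPM in vehicle and 7.94, 55.4 and 14.9 CPM in E2 libraries. E2 replicate 2 alone was above all vehicle libraries. Nr2f2 shares 643 exon bases with an opposite-strand transcript, B130024G19Rik.

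The capillary and microvascular genes had close means, 64.1 ± 16.4 CPM in vehicle and 61.6 ± 22.5 CPM in E2 libraries when summed (SD, n = 3 each). Aqp1, the water channel, had 45, 37.7 and 35.4 CPM in vehicle and 15.9, 40.3 and 39.8 CPM in E2 libraries. Only E2 replicate 1 lay outside the vehicle range. Ly6a, a surface protein of microvascular endothelium and of some blood cells, had 13.8, 8.87 and 35.4 CPM in vehicle and 15.9, 15.1 and 39.8 CPM in E2 libraries, and the ranges overlapped. Ly6c1 had 5 counts and Car4, a carbonic anhydrase of the capillary surface, had 1. Ly6a and Ly6c1 belong to a family of close copies, so reads may have been split between them.

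**Figure D3:**
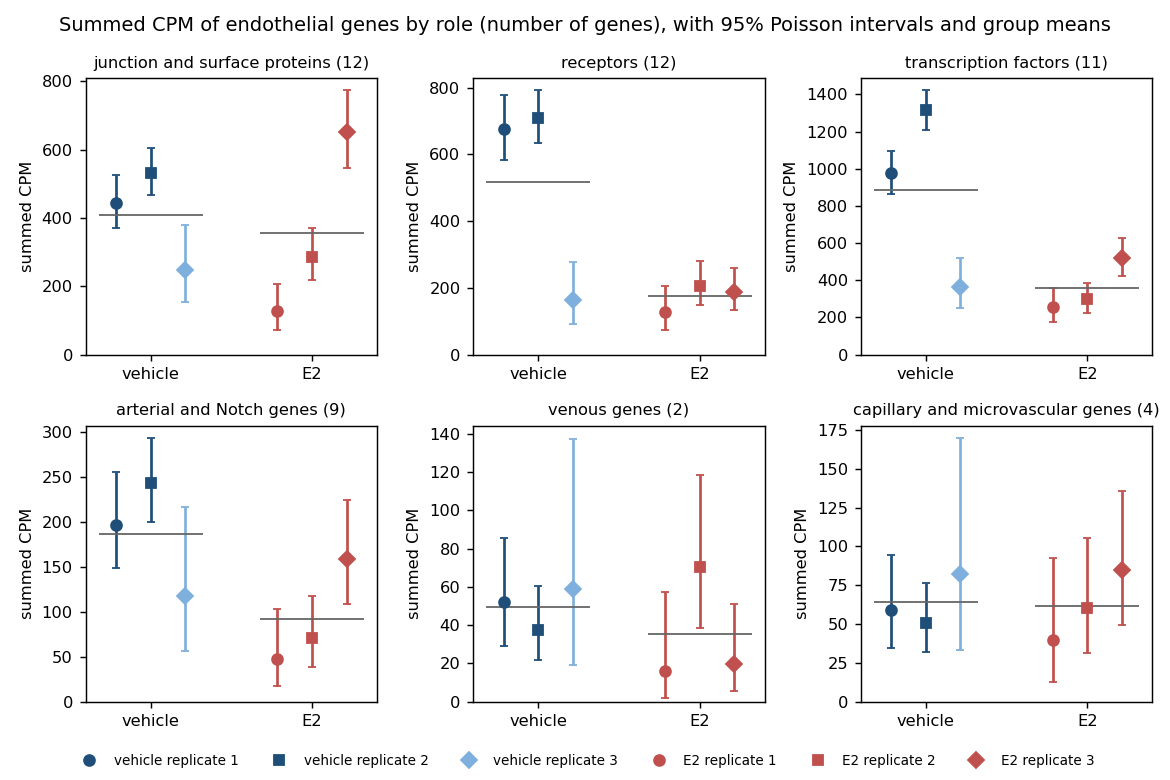
Each panel sums the CPM of the genes of 1 role (number of genes in parentheses) in each library, with 95% Poisson intervals for counting error and horizontal lines at the group means. For receptors, transcription factors and the arterial and Notch genes vehicle replicates 1 and 2 stand above the other 4 libraries, and for the capillary genes the groups overlap throughout.

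The 12 receptors had 675, 710 and 165 CPM in vehicle and 127, 206 and 189 CPM in E2 libraries. Vehicle replicates 1 and 2 stood far above the rest, and vehicle replicate 3 lay within the E2 range. The E2 mean was 0.337 times the vehicle mean, the lowest ratio of the 6 roles, and 1.06 times vehicle replicate 3.

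Kdr (ENSMUSG00000062960.10, mm10 chr5:75932827-75978458, minus strand), the main receptor for VEGF-A, had 322, 262 and 0 CPM in vehicle and 15.9, 50.4 and 49.7 CPM in E2 libraries, from 93, 118 and 0 counts against 2, 10 and 10. Vehicle replicate 3 was below all E2 libraries, and its 0 allows up to 35.4 CPM. The log2 fold change was -2.22 ± 0.73 (SE) with an adjusted p of 0.0763 in the quasi-likelihood test, and -2.37 ± 0.57 with an adjusted p of 0.0063 without the filter. Only without vehicle replicate 3 did the adjusted p of the unfiltered test stay below 0.05 (1.14e-09), and with another library left out it reached up to 0.356. The unfiltered call was also lost with the replicate number as a block (-1.87, adjusted p = 0.529) and with DESeq2 (-2.26, adjusted p = 0.33). Without vehicle replicates 1 and 2 the sign turned, to a log2 fold change of 5.71 (adjusted p = 0.83), a value set by the 0 of the vehicle library that was left.

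Flt1, the second VEGF receptor, had 3.46, 48.8 and 0 CPM in vehicle and 0, 5.04 and 14.9 CPM in E2 libraries. Vehicle replicate 2 alone stood out. Tek, which encodes the angiopoietin receptor Tie2, had 83.1, 90.9 and 23.6 CPM in vehicle and 23.8, 25.2 and 14.9 CPM in E2 libraries. Ptprb, the vascular phosphatase that acts on Tie2, had 118, 113 and 35.4 CPM in vehicle and 0, 30.2 and 34.8 CPM in E2 libraries. In both genes vehicle replicates 1 and 2 were well above every E2 library, and vehicle replicate 3 was close to the highest E2 library. Log2 fold changes without the filter were -1.77 ± 0.64 (SE) for Tek and -1.96 ± 0.62 for Ptprb, with adjusted p of 0.175 and 0.0874 in the quasi-likelihood test.

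Eng, the gene for the TGF-β co-receptor endoglin, had 45, 48.8 and 0 CPM in vehicle and 0, 5.04 and 4.97 CPM in E2 libraries. Vehicle replicates 1 and 2 were the high ones, and vehicle replicate 3 was at 0. Pooled, 35 vehicle counts against 2 E2 counts gave a ratio of 11.2 with an exact 95% interval of 2.86 to 95.7 for counting error only. The log2 fold change without the filter was -3.17 ± 0.93 (SE), with an adjusted p of 0.0541 in the quasi-likelihood test. Eng shares 61 exon bases with Fpgs on the opposite strand.

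The neuropilins are co-receptors for VEGF and semaphorins. Nrp1 had 27.7, 57.6 and 70.7 CPM in vehicle and 23.8, 20.1 and 19.9 CPM in E2 libraries, so that the groups did not overlap and vehicle replicate 3 was the highest library. Nrp2 had 45, 44.3 and 23.6 CPM in vehicle and 31.8, 35.3 and 0 CPM in E2 libraries, which overlapped. S1pr1, a receptor for sphingosine-1-phosphate that stabilizes vessels, had 13.8, 28.8 and 11.8 CPM in vehicle and 7.94, 15.1 and 19.9 CPM in E2 libraries, which also overlapped. The unfiltered quasi-likelihood test gave Nrp1 a log2 fold change of -1.16 ± 0.66 (SE) with an adjusted p of 0.591.

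Of the receptors with few counts, Flt4, the receptor for VEGF-C, had 10 counts, Tie1 had 7, Calcrl, the receptor part for adrenomedullin, had 6 and its partner Ramp2 had 2. Tie1 had 6.92, 0 and 0 CPM in vehicle and 7.94, 10.1 and 9.95 CPM in E2 libraries, so all E2 libraries were higher, but by 5 counts against 2. Calcrl had 0, 2.22 and 0 CPM in vehicle and 7.94, 5.04 and 14.9 CPM in E2 libraries, also all higher in E2, by 5 counts against 1. The unfiltered quasi-likelihood test gave adjusted p of 0.664 for Tie1 and 0.59 for Calcrl.

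The 11 transcription factors had 976, 1313 and 366 CPM in vehicle and 254, 297 and 517 CPM in E2 libraries. Again vehicle replicates 1 and 2 stood above all others and vehicle replicate 3 lay within the E2 range. The E2 mean was 0.403 times the vehicle mean and 0.975 times vehicle replicate 3.

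Epas1, which encodes the hypoxia-regulated factor HIF-2α, had 353, 585 and 259 CPM in vehicle and 127, 176 and 264 CPM in E2 libraries. The groups overlapped only between vehicle replicate 3 and E2 replicate 3. Its log2 fold change was -0.90 ± 0.48 (SE) with an adjusted p of 0.239 in the quasi-likelihood test.

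Ets1 (ENSMUSG00000032035.15, mm10 chr9:32636221-32757820, plus strand), an ETS factor of endothelium that is also made in lymphocytes, had 450, 474 and 47.2 CPM in vehicle and 63.5, 45.3 and 129 CPM in E2 libraries. Vehicle replicate 3 lay at the low end of the E2 range. The log2 fold change was -1.87 ± 0.64 (SE) with an adjusted p of 0.0797 in the quasi-likelihood test and -2.06 ± 0.53 with an adjusted p of 0.0154 without the filter. In the unfiltered test the adjusted p was below 0.05 with 2 of the 6 libraries left out in turn and reached 0.414 without E2 replicate 2. The unfiltered call was also lost with the replicate number as a block (-1.85, adjusted p = 0.484) and with DESeq2 (-1.92, adjusted p = 0.0519). Without vehicle replicates 1 and 2 the log2 fold change was 1.08 (adjusted p = 0.83).

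Fli1, an ETS factor of endothelial and blood cells, had 83.1, 115 and 0 CPM in vehicle and 23.8, 5.04 and 19.9 CPM in E2 libraries. Vehicle replicate 3 was below every E2 library, and the log2 fold change without the filter was -2.29 ± 0.67 (SE) with an adjusted p of 0.0506 in the quasi-likelihood test. Klf4, a factor induced by blood flow, had 38.1, 44.3 and 35.4 CPM in vehicle and 31.8, 20.1 and 19.9 CPM in E2 libraries. There the 3 vehicle libraries lay close together and above all E2 libraries, and the unfiltered log2 fold change was -0.77 ± 0.66 (SE) with an adjusted p of 0.664. Gata2, an activator of endothelial genes, had 24.2, 51 and 11.8 CPM in vehicle and 7.94, 20.1 and 54.7 CPM in E2 libraries, and the ranges overlapped.

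Other factors were close to the counting limit. The ETS factor Erg had 14 counts, Sox17, an arterial SOX factor, had 10, Klf2, another factor induced by flow, had 7, Sox7 had 6, Sox18 had 2 and Tal1 had 1. Sox17 had 6.92, 13.3 and 11.8 CPM in vehicle and 0, 0 and 4.97 CPM in E2 libraries, all lower in E2, by 1 count against 9 (adjusted p = 0.623 in the unfiltered quasi-likelihood test). Klf2, the member higher at the unadjusted threshold without the filter, had 1 count in vehicle replicate 2, 4 in E2 replicate 2, 2 in E2 replicate 3 and 0 in the other 3 libraries. Its adjusted p was 0.494 in the quasi-likelihood test.

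The 12 junction and surface proteins had 443, 532 and 248 CPM in vehicle and 127, 287 and 652 CPM in E2 libraries. E2 replicate 3 was the highest of all libraries and E2 replicate 1 the lowest. The E2 mean was 0.872 times the vehicle mean and 1.44 times vehicle replicate 3.

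Cdh5 (ENSMUSG00000031871.9, mm10 chr8:104101625-104144511, plus strand) had 187, 290 and 165 CPM in vehicle and 47.6, 186 and 373 CPM in E2 libraries. E2 libraries spanned the vehicle range on both sides, and the means were 214.1 ± 67.0 and 202.4 ± 163.3 CPM (SD, n = 3 each). The log2 fold change was 0.13 ± 0.56 (SE) with an adjusted p of 0.906 in the quasi-likelihood test, and its sign changed with the scaling, to -0.081 with library totals only. Pecam1, the junction protein CD31, had 69.2, 44.3 and 23.6 CPM in vehicle and 23.8, 35.3 and 49.7 CPM in E2 libraries, which overlapped.

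Egfl7, a secreted protein of endothelium, had 65.8, 62.1 and 35.4 CPM in vehicle and 7.94, 20.1 and 54.7 CPM in E2 libraries. E2 replicate 3 lay within the vehicle range and the other E2 libraries below it, and the log2 fold change was -0.80 ± 0.63 (SE) with an adjusted p of 0.441 in the quasi-likelihood test. It lay between -1.79 and -0.33 with a library left out. Egfl7 shares exon bases with Agpat2 (64) on the opposite strand and with Gm20532 (264) on its own strand, and hosts Mir126a. Mmrn2, an extracellular matrix protein of endothelium, had 31.2, 26.6 and 11.8 CPM in vehicle and 0, 0 and 9.95 CPM in E2 libraries. Its groups did not overlap, but vehicle replicate 3 rested on 1 count, and the pooled ratio of 7.01 had an exact 95% interval of 1.72 to 61.5 for counting error only. The unfiltered log2 fold change of Mmrn2 was -2.59 ± 1.01 (SE), with an adjusted p of 0.248 in the quasi-likelihood test.

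Plvap, which forms the diaphragms of endothelial vesicles and pores, had 34.6, 46.6 and 0 CPM in vehicle and 31.8, 20.1 and 89.5 CPM in E2 libraries. Vwf, the clotting factor stored in endothelial granules, had 17.3, 24.4 and 0 CPM in vehicle and 15.9, 15.1 and 24.9 CPM in E2 libraries. In both the means were higher in E2 libraries, vehicle replicate 3 was at 0 and the groups overlapped. The remaining 6 of this role were scarce, with 16 counts for the adhesion molecule Icam2, 12 for the junction protein Esam, 6 for the guidance receptor Robo4, 4 for the sialomucin Emcn, 2 for Cldn5, a tight junction claudin, and 1 for the lectin Clec14a.

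**Figure D4:**
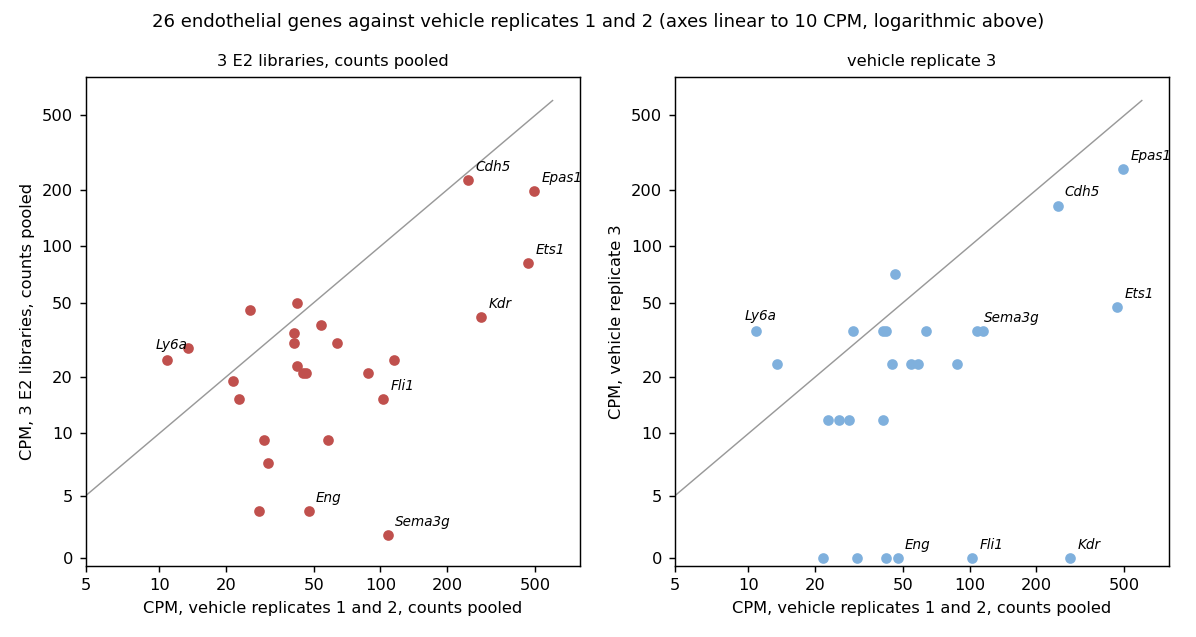
Each point is 1 of the 26 genes, with the pooled CPM of vehicle replicates 1 and 2 on the horizontal axis and, on the vertical axis, the pooled CPM of the 3 E2 libraries (left) or the CPM of vehicle replicate 3 (right); axes are linear to 10 CPM and logarithmic above, and the line marks equal values. In each panel 22 of the 26 points (84.6%) lie below the line, beside 58.7% (left) and 60.8% (right) of all genes with at least 20 counts; the panels share their horizontal values.

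Vehicle replicate 3 was the lowest vehicle library for 21 of the 26 (80.8%), beside 52.8% of all genes with at least 20 counts. It lay above all E2 libraries for 7 (26.9%, beside 28.6% of all such genes), within their range for 14 (53.8%, beside 42.7%) and below all of them for 5 (19.2%, beside 28.7%), which were Pecam1, Plvap, Vwf, Kdr and Fli1. It had no count for 6 of the 26 (Plvap, Vwf, Kdr, Flt1, Eng and Fli1), beside 14.1% of all such genes. With 88 counts on the 50 genes it was, together with E2 replicate 1 (77 counts), among the least sampled libraries.

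Partners of these genes in vascular signaling were read from a separate list of 67 genes, of which 64 were in the table and 12 passed the filter. Of the 12, 10 had log2 fold changes below 0 and 2 above 0, and 6 were lower at an unadjusted p of 0.05 or less in the quasi-likelihood test, beside 15.1% of all tested genes. Called lower at an adjusted p below 0.05, beside 2.97% of all tested genes, were Mllt4, the gene for the junction adaptor afadin (log2 fold change -2.01, adjusted p = 0.0425), and Fabp4, a fatty acid binding protein of capillaries and adipocytes (-1.81, adjusted p = 0.04995). Both calls were lost with the replicate number as a block (adjusted p = 0.171 for Mllt4 and 0.158 for Fabp4), by limma-voom (0.0618 and 0.1) and when a library other than vehicle replicate 3 was omitted (0.0915 to 0.231 and 0.11 to 0.265). Without vehicle replicates 1 and 2 the log2 fold changes were -0.36 for Mllt4 (adjusted p = 0.859) and -0.72 for Fabp4 (0.81). The other 4 were Vegfa, the ligand of Kdr (-1.36), Bmpr2, a BMP receptor (-1.31), Cd36, a fatty acid transporter of capillaries and muscle fibers (-1.31), and Ctnnb1, which encodes β-catenin (-1.29). For Vegfa the libraries had 253, 239 and 47.2 CPM in vehicle and 55.6, 80.6 and 64.7 CPM in E2, so that vehicle replicate 3 was lowest, as it was for Kdr. Several of these partners are also made by muscle fibers.

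Markers of other cells were summed in the same libraries. Lymphatic endothelial markers (6 genes) had 76.2, 115 and 23.6 CPM in vehicle and 7.94, 30.2 and 74.6 CPM in E2 libraries, an order in which vehicle replicate 3 and E2 replicate 1 were again low. Smooth muscle and pericyte markers (12 genes, Higd1b at 0) had 820, 621 and 507 CPM in vehicle and 365, 478 and 502 CPM in E2 libraries. Fibroblast markers (10 genes) ranged from 625 to 719 CPM and adipocyte markers (7 genes) from 55.4 to 94.5 CPM over all libraries. Immune markers (12 genes, 11 in the table) had 65.8, 99.8 and 236 CPM in vehicle and 63.5, 121 and 144 CPM in E2 libraries, highest in vehicle replicate 3. Skeletal muscle fiber markers (27 genes) had 135900, 106900 and 88480 CPM in vehicle and 91060, 107400 and 79110 CPM in E2 libraries, and were highest in vehicle replicate 1. The part of these differences in the values of the endothelial genes was not tested.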

How the data were processed

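TRAP RNA libraries of vehicle-treated and E2-treated mice (3 each) were compared. According to the submitters' processing notes and the study's methods, the authors used bcl2fastq (2.17) and FastQC (0.11.2) on the reads, STAR (2.5.3a) for mapping to mm10, and featureCounts of Subread (1.6.0) for counting. The deposited values are counts per gene symbol, without normalization and no source used here names the strand setting. The labels name a stranded total RNA kit with polyA RNA, the study's methods a ribosome profiling kit.

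From the deposited counts, CPM were computed over library totals, and E2 was compared with vehicle by edgeR (4.0.16, R 4.3.3) with filterByExpr, TMM scaling and the quasi-likelihood test, adjusted by the Benjamini-Hochberg method over all genes tested. The unadjusted threshold also asked for an average log2 CPM of 0 or more. DESeq2 (1.42.0) and limma-voom (3.58.1) were alternatives. Single genes were compared by exact two-sided permutation tests. Intervals (95%, Poisson or binomial) and the limit of 3 counts cover counting error only. P-values measure the spread between these libraries. The tests were checked on simulated data in which no library stood apart, unlike here. Gene positions and shared exon bases (50 or more) are from GENCODE M21. Levels per kb used exon length, and promoter sequences are from RefSeq.

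The 50 genes and all lists were chosen with earlier results of these data known. All 50 may be named, and values in each library are given for those that passed the filter or had at least 20 counts, and also, chosen after their values were seen, for Klf2 and the scarcer genes whose groups did not overlap (Gja5, Tie1, Calcrl and Sox17). Partners past the unadjusted threshold are named. Alternatives were other filters, scalings and tests, the replicate number as a block, and each library left out. Replicates 1 to 3 of both groups share mouse numbers. Deviations from the group means of same-numbered libraries correlated at -0.126, 0.026 and -0.197. With 3 libraries per group and vehicle replicate 3 apart from the others, these correlations cannot decide whether the numbers mark pairs.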

Additional observations from a re-analysis of the deposited data

How the results depend on the processing

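The log2 ratio of the summed endothelial genes (-0.97) kept its direction with other totals, without Epas1 and with any 1 library left out, and reversed to 0.052 without vehicle replicates 1 and 2. Members lower at an adjusted p below 0.05 (0 of 5, beside 2.97% of all genes) numbered 3 without a filter (0.939%) and 2 with library totals only (4.76%). They numbered 2 with edgeR's likelihood ratio test (9.04%) and 0 to 8 with a library left out (0.0956% to 24.3%). Members lower at the unadjusted threshold (2 of 5) numbered 11 without a filter (6.81% of all genes), where 1 was higher (3.27%). With at least 10 counts in every library, 0 of the 1 member tested was lower (15.4%). The number was 1 by DESeq2 (13%), 0 by limma-voom (12.1%), 0 with the replicate block (10.1%) and 2 to 9 with a library left out (8.2% to 27.6%). With a library left out, 5 to 13 members passed the filter, which then asked for its level in only 2 libraries. Members could thus enter through vehicle replicates 1 and 2 alone, as Efnb2, Fli1 and Ptprb did without E2 replicate 3. These counts with a library left out are therefore no support for a direction. Other alternatives were chosen after seeing the data. Without a filter and with a library left out, 1 to 10 members were lower at the adjusted p (0.132% to 5.02% of all genes), 9 to 14 lower at the unadjusted threshold (3.65% to 10.4%) and 0 to 2 higher (1.65% to 4.86%). Without vehicle replicates 1 and 2, 1 was lower (0.998% of all genes) and 2 higher (2.51%) at the unadjusted threshold unfiltered, and 0 lower (2.88%) and 1 higher (7.08%) filtered. DESeq2 without a filter gave 8 lower, and the replicate block without a filter 9 lower (3.89%) and 1 at the adjusted p (0.121%). Cdh5 reversed to -0.081 with library totals only, -0.27 by limma-voom, -0.29 with the replicate block, -0.36 with the block and no filter, -0.75 without E2 replicate 3 (-0.88 unfiltered), -0.01 without vehicle replicate 1 (-0.064 unfiltered) and -0.19 without a filter and without vehicle replicate 3; with a library left out of the filtered test it lay between -0.75 and 0.64. Without vehicle replicates 1 and 2, Ets1 reversed to 0.91 (1.08 unfiltered), Kdr to 5.71 and Egfl7 to 0.0595 unfiltered. The cause was not tested, except that fewer libraries and genes enter by construction.

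Over all genes, 50 were lower and 42 higher at the adjusted p, against 132 and 31 without a filter, 0 and 11 with at least 10 counts in every library, 80 and 37 with library totals only, 152 and 105 with the likelihood ratio test, 9 and 63 by limma-voom and 1 and 7 with the replicate block. Without vehicle replicate 3 they were 526 and 477, and with another library left out 2 to 11 and 6 to 15. Depth limits the genes under 20 counts, for which a missing count in vehicle replicate 3 allows up to 35.4 CPM.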
